A study of Homo sapiens with 24 samples.

Results

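A group of keratin genes of basal, stress and luminal type was followed in a pair of breast cancer cell lines: KRT5, KRT6A, KRT6B, KRT16, KRT7, KRT8, KRT18, KRT19, KRT80 and KRT81. They are 10 of the 56 keratin rows among the 26645 gene rows of the count table, and all 10 passed the filter on low counts. They were chosen by name, with earlier results of these data known. KRT80 and KRT6B were included because they had been seen to change early in the homocysteine course. Every contrast that uses the 0.5 h or 2 h libraries is therefore given for these genes as values only, with no test and outside the counts. Their tests at 0 h, and of 12 h against 0 h, share the 0 h libraries in which that change was seen.

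RNA was measured by sequencing of poly(A)-selected libraries, 3 in each of 8 groups. MB468 (MDA-MB-468) is an established triple-negative human breast cancer line whose growth depends on methionine (Met), and MB468res-R8 is 1 Met-independent clone obtained from it by prolonged culture in homocysteine (Hcy) medium. The 0 h cells were in Met+ medium with 100 μM Met. The other groups were collected 0.5, 2 and 12 h after a switch to Met-Hcy+ medium, which lacks Met and holds 370 μM DL-homocysteine. Both lines were grown in DMEM with dialyzed serum, vitamin B12, glutamine and cysteine. No group had a change to fresh Met+ medium, so a response to the medium change cannot be told apart from a response to Hcy. The labels do not say whether the 3 libraries of a group came from separate cultures, so p-values measure the spread between these libraries, which may be technical.

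Keratins are the intermediate filament proteins of epithelial cells. A type I chain pairs with a type II chain, and each epithelium uses characteristic pairs. KRT5 (type II) with KRT14 (type I) marks basal cells of stratified and mammary epithelium. KRT8 (type II) with KRT18 (type I), joined by KRT7 and KRT19, makes the network of simple and luminal epithelium. KRT6A, KRT6B, KRT16 and KRT17 are induced in wounded, stressed or hyperproliferative epithelium. KRT80 is a type II keratin of broad epithelial distribution, and KRT81 is a type II keratin of hair that is also found in some breast cancers. Basal-like breast cancers commonly carry keratins of both compartments. In GENCODE v44 (GRCh38), 7 of the 10 genes are type II and 3 type I. On chromosome 12 lie 8 of the genes, including the type I gene KRT18 at chr12:52948871-52952906, and KRT16 and KRT19 lie on chromosome 17.

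KRT6A (chr12:52487176-52493257) and KRT6B (chr12:52446651-52452146) are close copies, and their sequences are shown because the results below turn on telling their reads apart. Their coding sequences were 1695 bases each in the Ensembl canonical transcripts and differed at 43 positions, an identity of 97.46%. Of the 1596 stretches of 100 bases, 218 (13.66%) were the same in both. The first 100 coding bases, in exon 1 on the minus strand at chr12:52493089-52493188 for KRT6A and chr12:52451979-52452078 for KRT6B, have no difference. A stretch in exon 2, coding bases 646 to 745 at chr12:52491532-52491631 and chr12:52450416-52450515, has the most, and capitals mark the 10 positions at which the pair differ.
KRT6A and KRT6B, exon 1: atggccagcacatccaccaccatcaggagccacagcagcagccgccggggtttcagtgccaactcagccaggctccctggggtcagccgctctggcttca
KRT6A, exon 2: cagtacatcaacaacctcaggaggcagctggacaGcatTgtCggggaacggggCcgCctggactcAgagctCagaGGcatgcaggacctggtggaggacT
KRT6B, exon 2: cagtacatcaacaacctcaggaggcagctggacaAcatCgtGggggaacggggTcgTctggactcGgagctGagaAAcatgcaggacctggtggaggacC

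Similar copies and overlapping genes bear on several of the counts. KRT81 shared 30.33% of its 100-base stretches with another annotated gene, mostly its neighbour KRT86. KRT6B shared 24.42%, mostly with KRT6C. KRT6A shared 18.24%, also mostly with KRT6C. KRT18 shared 18.49% with a long annotated transcript of KRT8 on the opposite strand, and KRT7 shared 8.32% with its antisense gene KRT7-AS. The library kit does not mark strand, so reads in such overlaps cannot be told apart. KRT8 and KRT16 each shared 7.12%, KRT8 with pseudogenes and KRT16 with KRT14 and its own pseudogenes. KRT5 shared 1.64%, and KRT19 and KRT80 shared none. How reads that fit more than 1 gene were counted is not given in the sources used here. Levels of KRT6A, KRT6B, KRT81 and KRT18, and the number of KRT8 counts per KRT18 count, are uncertain to that extent.

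Library totals ran from 11713037 to 36402932 gene counts. Values below are CPM, gene counts scaled by edgeR's TMM method to a common library size, and compare 1 gene between libraries and not different genes with each other. The epithelial genes EPCAM (286 to 437 CPM) and CDH1 (255 to 446 CPM) were present in every library. Of 12 listed luminal genes other than keratins, 8 passed the filter, among them ESR1, GATA3, FOXA1, MUC1 and SPDEF. The 12 summed to a mean of 455 CPM in MB468 and 496 CPM in MB468res-R8 at 0 h. PGR, TFF1 and TFF3 of that list, defining genes of hormone-responsive luminal cells, had at most 4 counts in any library. PTPRC, the pan-leukocyte marker, had at most 7 counts. Some genes of other cell types were present and differed between groups, among them the endothelial receptor KDR (7.43 to 399 CPM), the monocyte receptor CD14 (21.2 to 159 CPM) and the collagen COL1A1 (14.6 to 73.2 CPM), while CD3E, DCN and COL1A2 had at most 3 counts. The part of these genes in the keratin results was not tested. In such bulk RNA, fewer cells of a type and less RNA per cell cannot be told apart. The library MB468 2 h replicate 2 stood apart, with 8251 counts of the small nuclear RNA RN7SK against at most 357 in any other library, and leaving it out changed no call of the 10 keratins. Calls are edgeR quasi-likelihood tests with a Benjamini-Hochberg adjusted p under 0.05, adjusted over all 14741 genes tested.

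In Met+ medium KRT18, KRT8 and KRT19 of simple epithelium were higher in MB468res-R8, calls that were all lost with spike-in scaling, where KRT8 and KRT19 also changed sign. KRT7, the other simple keratin, was lower in MB468res-R8 under both scalings, as were KRT5 and KRT6B. KRT6A and KRT6B differed in opposite directions, with all libraries each by about the same fold. Leaving out single libraries gave log2 fold changes from 1.78 to 2.51 for KRT6A and from -2.05 to -2.00 for KRT6B. All 10 genes were called, 7 higher and 3 lower in MB468res-R8, where 53.5% of all genes tested were called (26.4% higher and 27.1% lower). The libraries of the lines did not overlap for any of the 10 genes, as for 60% of all genes. The median log2 fold change over the 10 genes was 0.27, against -0.00 over all genes tested.

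KRT6B was measured at 314, 317 and 299 CPM in MB468 and at 76.8, 77.4 and 75.5 CPM in MB468res-R8. The groups did not overlap, and KRT6B was 4.05-fold lower in MB468res-R8 (log2 fold change -2.02 ± 0.05 SE, adjusted p = 1.73e-29). This test uses the 0 h libraries in which the early change of KRT6B was seen. KRT6A was far scarcer in both lines. It was measured at 1.38, 2.66 and 1.05 CPM (17 to 76 counts) in MB468 and at 7.11, 6.84 and 7.47 CPM (130 to 204 counts) in MB468res-R8. Every MB468res-R8 library was above every MB468 library, a 3.95-fold difference (log2 fold change 1.98 ± 0.19 SE, adjusted p = 1.03e-10). KRT6A made up 0.540% ± 0.257 (SD) of the KRT6A and KRT6B counts in MB468 and 8.53% ± 0.449 in MB468res-R8.

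KRT16, the usual type I partner of KRT6, was higher in MB468res-R8. Its levels were 267, 288 and 289 CPM in MB468 and 499.9, 514 and 463 CPM in MB468res-R8, with no overlap (log2 fold change 0.81 ± 0.07 SE, adjusted p = 1.29e-09). KRT5 went the other way. It stood at 2120.0, 2116 and 1984 CPM in MB468 and at 1722, 1709 and 1579.7 CPM in MB468res-R8 (log2 fold change -0.31 ± 0.04 SE, adjusted p = 4.88e-09). KRT14, the type I partner of KRT5 and not one of the 10 genes, was also lower in MB468res-R8, at a mean of 101 CPM against 196 CPM (log2 fold change -0.95).

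KRT18 showed the largest difference among the simple keratins. It was at 679.9, 632 and 620.5 CPM in MB468 and at 981, 1000.1 and 905 CPM in MB468res-R8, without overlap (log2 fold change 0.58 ± 0.04 SE, adjusted p = 5.46e-15). Its type II partner KRT8 was at 1733, 1728 and 1591 CPM in MB468 and at 2139, 2017 and 2026 CPM in MB468res-R8, a smaller difference (log2 fold change 0.29 ± 0.04 SE, adjusted p = 3.25e-08). The number of KRT8 counts per KRT18 count was 2.62 ± 0.103 (SD) in MB468 and 2.15 ± 0.115 in MB468res-R8. KRT19 was higher by 0.19 ± 0.05 SE on the log2 scale (adjusted p = 0.00215), and KRT7 was lower (log2 fold change -0.13 ± 0.04 SE, adjusted p = 0.00263). KRT80 was higher by 0.26 ± 0.04 SE. KRT81 was at 1.82 to 2.78 CPM in MB468 and 4.43 to 6.34 CPM in MB468res-R8, a 2.34-fold difference (log2 fold change 1.22 ± 0.22 SE, adjusted p = 1.09e-05).

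The directions of KRT8, KRT19 and KRT80 between the lines depended on scaling. With libraries scaled to the spike-in RNA, the median of all genes moved to -0.31 on the log2 scale, KRT8 to -0.02, KRT19 to -0.12 and KRT80 to -0.06, and these and KRT18 (0.27) were no longer called. The other 6 differences (KRT5, KRT6A, KRT6B, KRT7, KRT16 and KRT81) had the same sign and were called under both scalings. Of all genes called, 49.4% were higher in MB468res-R8 with TMM scaling and 14.98% with spike-in scaling. Spike-in scaling moved the median of all genes in the MB468 time course too, to -0.20, -0.42 and -0.23 at 0.5, 2 and 12 h.

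**Figure D1:**
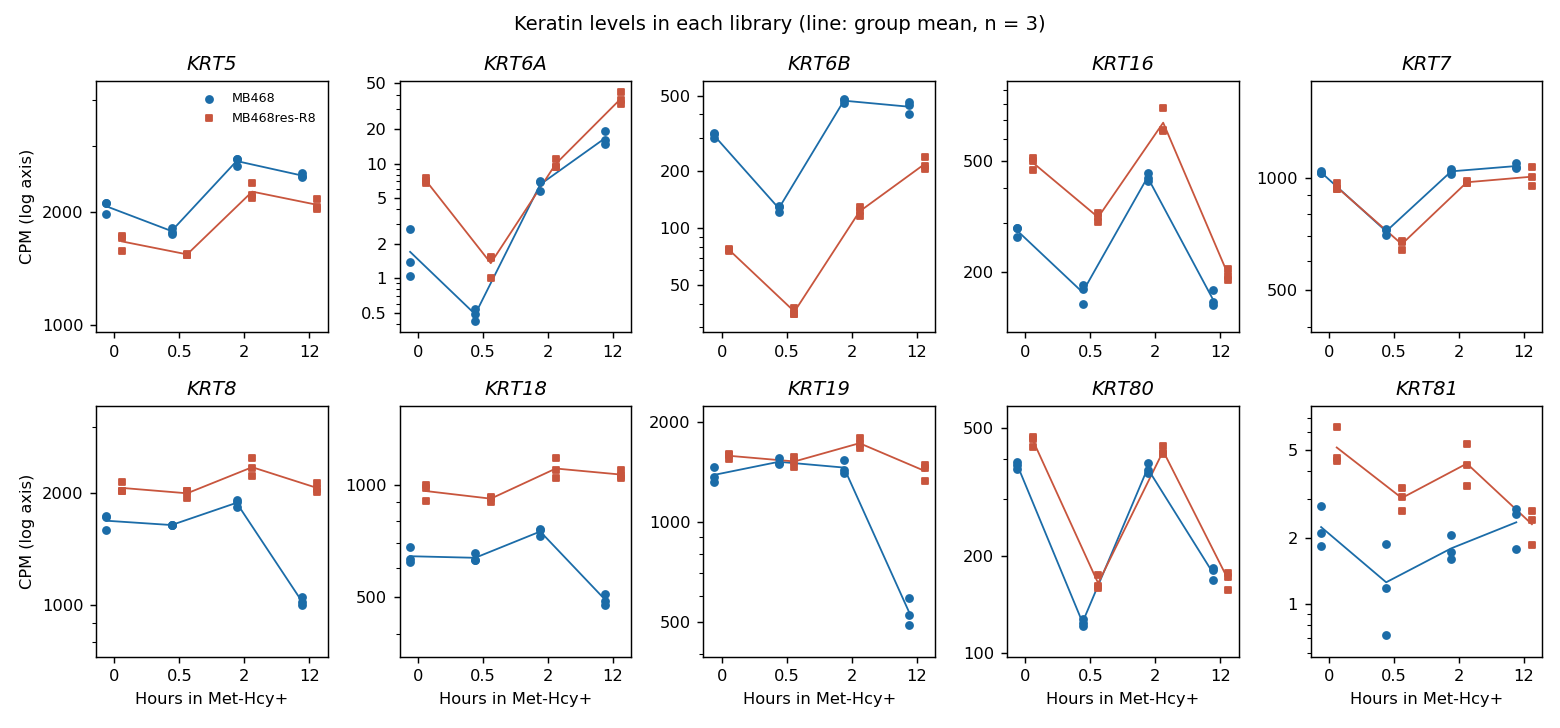
Level of each keratin in CPM (logarithmic axis, scaled for each gene) in every library against hours in Met-Hcy+ medium (time points evenly spaced, 0 h in Met+), with blue circles for MB468, red squares for MB468res-R8 and lines through the means of 3 libraries. KRT6A, KRT6B, KRT16 and KRT80 are lower at 0.5 h than at 0 h in both lines, and at 12 h KRT8, KRT18 and KRT19 have means of 1028, 492 and 536 CPM in MB468 and 2059.6, 1064 and 1426 CPM in MB468res-R8.

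At 0.5 h KRT5, KRT6A, KRT16, KRT7 and KRT81 fell in both lines, while KRT8 and KRT18 were not called in either. Of the 8 genes tested, 6 were called in MB468 (1 higher and 5 lower), where 33.9% of all genes were called (17.6% higher and 16.4% lower), and 5 in MB468res-R8 (all lower), where 33.7% were called (17.4% higher and 16.3% lower).

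KRT6A fell most of the 8 genes tested. It went to 0.490, 0.540 and 0.423 CPM (5 to 15 counts) in MB468 (log2 fold change -1.85 ± 0.31 SE, adjusted p = 1.56e-05). Leaving out single libraries gave MB468 values from -2.05 to -1.33, beside -1.62 for KRT80, which was not tested. In MB468res-R8 KRT6A went to 1.53, 1.01 and 1.51 CPM (19 to 40 counts, log2 fold change -2.38 ± 0.20 SE, adjusted p = 2.22e-11). In neither line did the 0.5 h libraries overlap those at 0 h. KRT16 was at 180.4, 154 and 174 CPM in MB468 (log2 fold change -0.73 ± 0.07 SE) and at 326, 303 and 314 CPM in MB468res-R8 (-0.65 ± 0.07 SE). KRT7, a simple keratin, moved with the stress keratins here. It was at 726, 701 and 729 CPM in MB468 and at 678, 673 and 641 CPM in MB468res-R8 (log2 fold changes -0.52 ± 0.04 SE and -0.51 ± 0.04 SE), below every 0 h library of its line.

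KRT80 and KRT6B, given as values only, were lower in every 0.5 h library than in any 0 h library of the same line. KRT80 went from 390.3, 372 and 384 CPM to 127, 124 and 121 CPM in MB468, a log2 fold change of -1.62. In MB468res-R8 it went from 463, 469 and 436 CPM to 174, 161 and 159 CPM (-1.47). KRT6B was at 131, 129 and 122 CPM at 0.5 h in MB468 (log2 fold change -1.28) and at 35.5, 35.4 and 38.1 CPM in MB468res-R8 (-1.08).

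Smaller calls at 0.5 h rested on few libraries. The KRT19 rise in MB468 was 0.13 on the log2 scale (adjusted p = 0.0454), turned to -0.09 with spike-in scaling, and was not called with DESeq2 (adjusted p = 0.074) or without any 1 of MB468 0 h replicates 2 and 3 and MB468 0.5 h replicates 1, 2 and 3 (adjusted p = 0.23, 0.18, 0.23, 0.10 and 0.09). KRT81 fell by 0.94 on the log2 scale in MB468, and by 0.60 with adjusted p = 0.12 without MB468 0.5 h replicate 1. In MB468res-R8 the KRT81 call (log2 fold change -0.76) was lost without MB468res-R8 0 h replicate 2 (-0.58, adjusted p = 0.062). The KRT5 call there (-0.11) was lost without MB468res-R8 0 h replicate 1 (adjusted p = 0.083) or 2 (adjusted p = 0.075).

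At 2 h the calls were in the other direction. In each line 5 of the 8 genes tested were called, all higher than at 0 h, where in MB468 16.3% of all genes were called (8.88% higher and 7.47% lower) and in MB468res-R8 4.37% (2.52% higher and 1.85% lower). They were KRT5, KRT6A, KRT16, KRT8 and KRT18 in both lines. With spike-in scaling, 1 of the 8 was called higher in MB468 (KRT6A) and 3 lower (KRT7, KRT19 and KRT81), and none was called in MB468res-R8 (3 of 8 had an unadjusted p under 0.05). With that scaling 9511 of the 14741 genes tested were called in MB468, and 2.52% of these calls were higher. With TMM scaling KRT7, KRT19 and KRT81 were not called in either line.

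KRT5 stood at 2781, 2783 and 2655 CPM in MB468 and at 2189, 2398 and 2223 CPM in MB468res-R8. Each set lay above all 0 h libraries of its line (log2 fold changes 0.40 ± 0.04 SE and 0.44 ± 0.04 SE, adjusted p = 7.03e-11 and 4.79e-11). With spike-in scaling KRT5 in MB468 was at -0.02. KRT16 rose to 433, 454 and 425 CPM in MB468 and to 638, 772 and 645 CPM in MB468res-R8, again without overlap (log2 fold changes 0.64 ± 0.07 SE and 0.48 ± 0.07 SE), calls that were lost with spike-in scaling (0.22, adjusted p = 0.11 and 0.43, adjusted p = 0.054). KRT6A in MB468 rose 3.69-fold, to 7.08, 5.72 and 6.93 CPM (log2 fold change 1.88 ± 0.20 SE, adjusted p = 7.89e-09). In MB468res-R8 KRT6A was at 9.42, 11.0 and 9.43 CPM (log2 fold change 0.49 ± 0.15 SE, adjusted p = 0.0494). That call was lost with DESeq2 size factors (adjusted p = 0.053), with the replicate number as a block (adjusted p = 0.073) and without any single MB468res-R8 library at 0 h or 2 h (adjusted p from 0.062 to 0.34).

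KRT8 and KRT18 rose by 0.16 and 0.22 on the log2 scale in MB468 and by 0.18 and 0.20 in MB468res-R8. With spike-in scaling the MB468 values were -0.26 and -0.20, KRT19 was at -0.35 and KRT7 at -0.41, beside the median of all genes at -0.42. The call of KRT8 in MB468 was lost without MB468 0 h replicate 3 (adjusted p = 0.054). In MB468res-R8, leaving out MB468res-R8 2 h replicate 2 ended the calls of KRT8 (adjusted p = 0.067) and KRT18 (adjusted p = 0.076), and leaving out MB468res-R8 0 h replicate 3 ended that of KRT18 (adjusted p = 0.053).

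KRT80 at 2 h overlapped the 0 h libraries of each line. It was at 389, 371 and 362 CPM in MB468 and at 416, 437 and 417 CPM in MB468res-R8. KRT6B was above its 0 h range in both lines, at 459.7, 479 and 475 CPM in MB468 (log2 fold change 0.60) and at 115, 129 and 123 CPM in MB468res-R8 (0.68).

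By 12 h the lines had separated in KRT8, KRT18 and KRT19, while the change of KRT7, the other simple keratin, was not called as different between them. In MB468, 8 of the 10 genes were called against 0 h, 3 higher (KRT5, KRT6A and KRT6B) and 5 lower (KRT8, KRT18, KRT19, KRT16 and KRT80), where 70.8% of all genes were called (36.1% higher and 34.7% lower). In MB468res-R8, 9 of the 10 were called, 5 higher (KRT5, KRT6A, KRT6B, KRT18 and KRT7) and 4 lower (KRT16, KRT80, KRT81 and KRT19), where 61.3% of all genes were called (30.2% higher and 31.1% lower). The medians over the 10 genes were -0.17 in MB468 and 0.05 in MB468res-R8, against 0.01 and -0.02 over all genes tested.

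KRT19 fell most among the simple keratins in MB468. From 1469, 1324 and 1366 CPM it went to 490.2, 526 and 591 CPM, with no overlap (2.59-fold lower, log2 fold change -1.37 ± 0.05 SE, adjusted p = 1.70e-20). In MB468res-R8 it went from 1609, 1592 and 1549 CPM to 1457, 1333 and 1488 CPM (log2 fold change -0.15 ± 0.05 SE, adjusted p = 0.0119), a call lost without MB468res-R8 0 h replicate 1 (adjusted p = 0.093) or MB468res-R8 12 h replicate 2 (adjusted p = 0.085).

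KRT8 went to 1005, 1022 and 1056 CPM in MB468, below all other MB468 libraries (1.64-fold lower, log2 fold change -0.71 ± 0.04 SE, adjusted p = 1.89e-19). In MB468res-R8 it was at 2120.5, 2013 and 2045 CPM, overlapping 0 h, and the interval of its log2 fold change (1.96 SE each way) ran from -0.08 to 0.08. KRT18 went to 478, 488 and 511 CPM in MB468 (log2 fold change -0.39 ± 0.04 SE, adjusted p = 1.51e-10). In MB468res-R8 it was at 1096, 1040.1 and 1057 CPM (0.15 ± 0.04 SE, adjusted p = 0.00296), a call lost without MB468res-R8 0 h replicate 3 (adjusted p = 0.057). KRT7 differed from the other simple keratins. It was at 1091, 1068 and 1062 CPM in MB468, above its 0 h range but not called (interval -0.01 to 0.13, and a value of -0.18 with spike-in scaling). In MB468res-R8 KRT7 was at 1068, 948 and 1001 CPM (log2 fold change 0.09, adjusted p = 0.0272). That call was lost when every library had to hold at least 10 counts (adjusted p = 0.069) and without MB468res-R8 0 h replicate 2, 0 h replicate 3 or 12 h replicate 1 (adjusted p = 0.094, 0.099 and 0.11).

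KRT6A rose most of the 10 genes in both lines. It reached 14.8, 19.3 and 16.04 CPM (408 to 576 counts) in MB468, 9.21-fold above 0 h (log2 fold change 3.20 ± 0.17 SE, adjusted p = 2.44e-17). In MB468res-R8 it reached 42.0, 33.1 and 35.6 CPM, 5.18-fold above 0 h (log2 fold change 2.37 ± 0.14 SE, adjusted p = 6.19e-16). The MB468 value rests partly on MB468 0 h replicate 2, without which it was 3.73. KRT6B, whose 12 h test shares the 0 h libraries in which its early change was seen, was at 446, 465 and 403 CPM in MB468 (log2 fold change 0.50 ± 0.05 SE, adjusted p = 4.43e-12). In MB468res-R8 it reached 236, 212 and 206 CPM, 2.85-fold above 0 h (log2 fold change 1.51 ± 0.05 SE, adjusted p = 5.33e-25). KRT5 rose by 0.27 ± 0.04 SE on the log2 scale in MB468 and by 0.32 ± 0.04 SE in MB468res-R8. In MB468 the calls of KRT5 and KRT6B were lost with spike-in scaling (0.04, adjusted p = 0.80 and 0.27, adjusted p = 0.059), and in MB468res-R8 those of KRT7 (adjusted p = 0.52), KRT18 (adjusted p = 0.29) and KRT19 (adjusted p = 0.42).

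KRT16 moved against KRT6A and KRT6B at 12 h. It fell to 173, 157 and 153 CPM in MB468 (log2 fold change -0.81 ± 0.07 SE, adjusted p = 8.21e-10). In MB468res-R8 it fell to 205, 193 and 188 CPM (-1.33 ± 0.07 SE, adjusted p = 2.48e-13). There were 6.43 ± 0.264 (SD) KRT16 counts per KRT6B count in MB468res-R8 at 0 h and 0.898 ± 0.025 at 12 h. In MB468 the same ratio went from 0.908 ± 0.058 to 0.368 ± 0.027.

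KRT80 was low again at 12 h. It was at 183, 181 and 169 CPM in MB468 (log2 fold change -1.11 ± 0.04 SE, adjusted p = 7.20e-24) and at 177, 171 and 157 CPM in MB468res-R8 (-1.44 ± 0.04 SE, adjusted p = 1.41e-26). These tests share the 0 h libraries in which the early change was seen. KRT81 fell in MB468res-R8, to 2.63, 1.85 and 2.41 CPM (37 to 67 counts, log2 fold change -1.14 ± 0.22 SE, adjusted p = 2.10e-05). In MB468 it was at 1.77, 2.56 and 2.70 CPM, overlapping 0 h (interval of the log2 fold change -0.36 to 0.54).

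**Figure D2:**
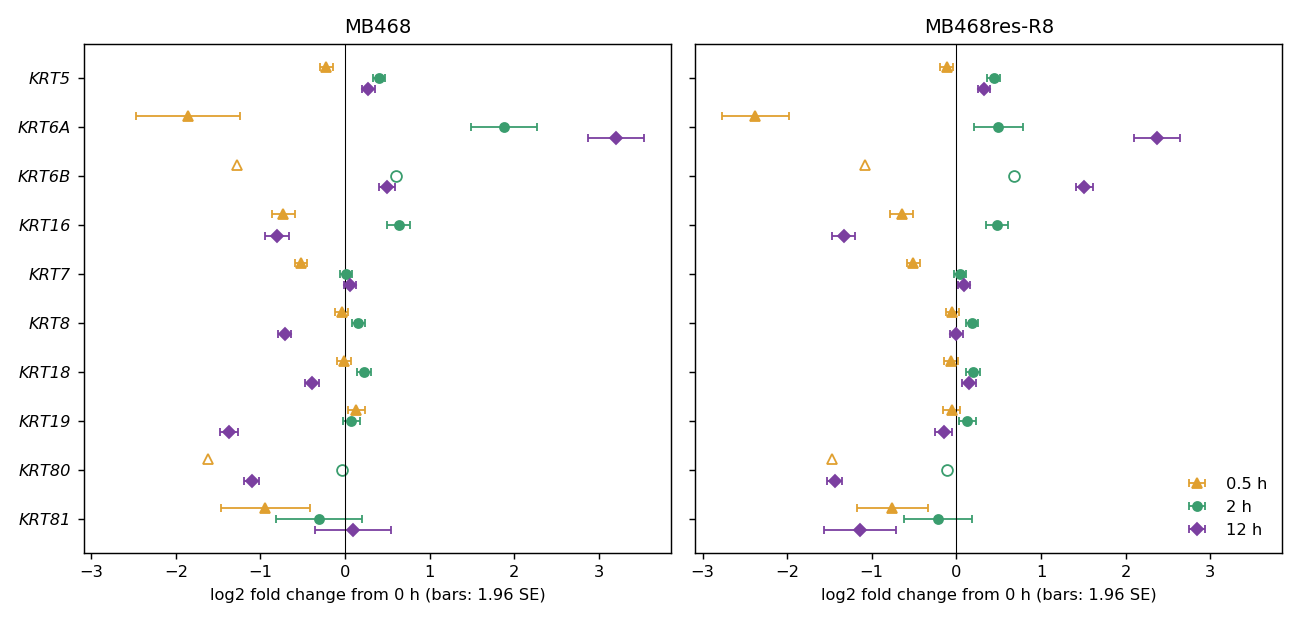
Log2 fold change from 0 h for each keratin at 0.5 h (yellow triangles), 2 h (green circles) and 12 h (purple diamonds) in MB468 (left) and MB468res-R8 (right), with bars of 1.96 SE. Hollow marks without bars are KRT6B and KRT80 at 0.5 and 2 h, which were not tested. The 12 h marks of KRT8, KRT18 and KRT19 lie at -0.71, -0.39 and -1.37 in MB468 and at -0.00, 0.15 and -0.15 in MB468res-R8. With spike-in scaling the 2 h values of KRT5, KRT7, KRT8, KRT18 and KRT19 in MB468 change sign. Others that do include KRT19 at 0.5 h and KRT7 at 12 h in MB468.

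Between 2 and 12 h, 6 of the 8 genes tested were called in each line, where in MB468 69.7% of all genes were called (34.6% higher and 35.1% lower) and in MB468res-R8 62.5% (30.7% higher and 31.8% lower). KRT6A rose further in both (log2 fold changes 1.32 ± 0.15 SE and 1.88 ± 0.13 SE), and KRT16 fell in both (-1.44 ± 0.07 SE and -1.81 ± 0.07 SE). KRT19 fell by 1.45 on the log2 scale in MB468 and by 0.28 in MB468res-R8, and KRT8 by 0.87 and 0.18. In MB468res-R8 the calls of KRT5, KRT8 and KRT19 were lost with spike-in scaling (adjusted p = 0.77, 0.47 and 0.16). KRT18 fell by 0.61 in MB468 and was not called in MB468res-R8, and KRT81 fell by 0.92 in MB468res-R8 and was not called in MB468. KRT5 fell by 0.13 in MB468, a value that turned to 0.06 with spike-in scaling. It fell by 0.12 in MB468res-R8, a call lost without MB468res-R8 2 h replicate 2 (adjusted p = 0.11) or MB468res-R8 12 h replicate 3 (adjusted p = 0.12). KRT7 was not called in either line with all libraries. Without MB468res-R8 12 h replicate 2, KRT7 was called in MB468res-R8 (log2 fold change 0.09, adjusted p = 0.042).

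The question whether the lines answered Met-Hcy+ medium differently was tested as a difference in response, the MB468res-R8 change minus the MB468 change. At 0.5 h edgeR called 0 of the 8 genes tested, where 2.9% of all genes were called (1.2% higher and 1.7% lower). One of the 8, KRT19, had an unadjusted p under 0.05, and DESeq2 called 0 with 1 at an unadjusted p under 0.05. At 2 h 1 of 8 was called, KRT6A (log2 difference -1.39 ± 0.25 SE, adjusted p = 0.000313), where 5.07% of all genes were called (2.19% higher and 2.88% lower). Without MB468 0 h replicate 2 the KRT6A value was -1.92. The intervals of the other 7 spanned 0, the widest being that of KRT81 (-0.56 to 0.73). Without MB468res-R8 2 h replicate 2, KRT16 was called as well (-0.26, adjusted p = 0.044).

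At 12 h 8 of the 10 genes differed in response, 4 in each direction, where 56.5% of all genes were called (26.2% higher and 30.3% lower). The simple keratins KRT19 (1.22 ± 0.07 SE, adjusted p = 4.93e-15), KRT8 (0.71 ± 0.05 SE, adjusted p = 2.59e-14) and KRT18 (0.53 ± 0.06 SE, adjusted p = 5.79e-10) had the higher response in MB468res-R8, and so had KRT6B (1.01 ± 0.07 SE, adjusted p = 1.61e-15). The response was lower in MB468res-R8 for KRT81 (-1.23 ± 0.32 SE), KRT6A (-0.83 ± 0.23 SE, and -1.36 without MB468 0 h replicate 2), KRT16 (-0.53 ± 0.10 SE) and KRT80 (-0.33 ± 0.06 SE). The tests of KRT6B and KRT80 share the 0 h libraries in which their early change was seen. With spike-in scaling KRT16 (-0.27, adjusted p = 0.23) and KRT80 (-0.08, adjusted p = 0.77) were not called, while the median of all genes moved to 0.20 and the share of calls that were higher from 46.3% to 69.9%. KRT5 and KRT7 were not called (intervals -0.05 to 0.16 and -0.07 to 0.14). Without MB468 0 h replicate 3, KRT5 was called (0.13, adjusted p = 0.044).

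At 12 h the lines themselves differed in 8 of the 10 genes, 5 higher and 3 lower in MB468res-R8, where 73.1% of all genes were called (33.9% higher and 39.2% lower). KRT19 was 2.66-fold higher (log2 fold change 1.41 ± 0.05 SE, adjusted p = 5.49e-21). KRT18 was 2.16-fold higher (1.11 ± 0.04 SE, adjusted p = 1.25e-24) and KRT8 2.00-fold higher (adjusted p = 1.92e-24). KRT6A was 2.22-fold higher and KRT6B 2.01-fold lower, against 3.95-fold higher and 4.05-fold lower at 0 h. KRT16 was higher by 0.28 ± 0.07 SE on the log2 scale, a call lost with spike-in scaling (0.23, adjusted p = 0.12), and KRT5 was lower (-0.26 ± 0.04 SE). KRT80 (interval of the log2 fold change -0.16 to 0.01) and KRT81 (-0.45 to 0.44), both higher in MB468res-R8 at 0 h, were not called. Without MB468 12 h replicate 3, KRT80 was called lower (-0.11, adjusted p = 0.048). The call of KRT7 (log2 fold change -0.09, adjusted p = 0.0192) was lost with DESeq2 (adjusted p = 0.064), with spike-in scaling (adjusted p = 0.29), and without MB468 12 h replicate 1, MB468res-R8 12 h replicate 2 or MB468res-R8 12 h replicate 3 (adjusted p = 0.096, 0.23 and 0.25).

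**Figure D3:**
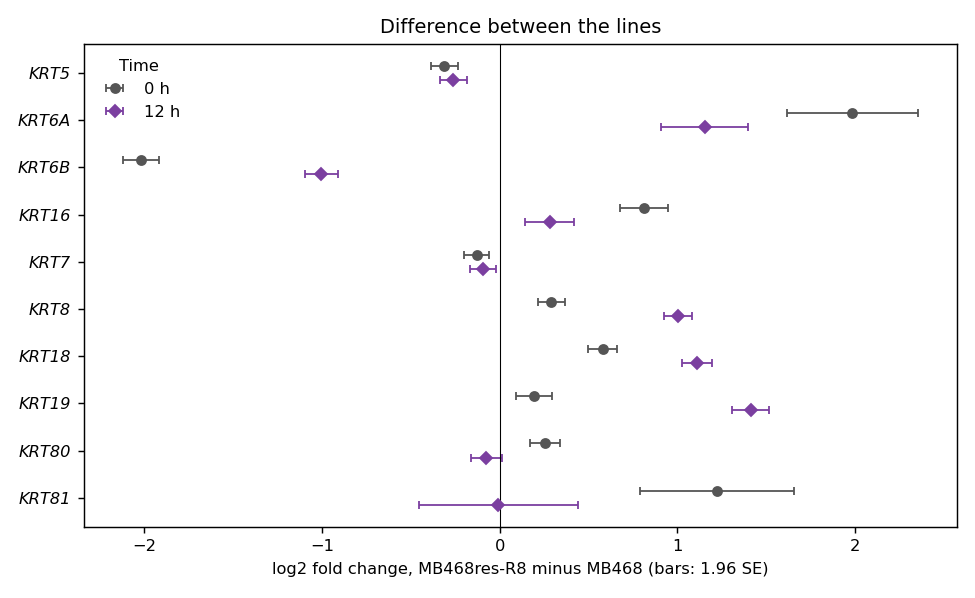
Log2 fold change of MB468res-R8 minus MB468 for each keratin at 0 h (grey circles) and 12 h (purple diamonds), with bars of 1.96 SE. KRT8, KRT18 and KRT19 lie farther above 0 at 12 h than at 0 h, and KRT6A and KRT6B lie on opposite sides of 0 at both times. With spike-in scaling KRT8, KRT19 and KRT80 at 0 h change sign.

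The order of the 8 group means differed between the genes. For KRT80, MB468 0.5 h was the lowest and lay apart. Then came MB468res-R8 0.5 h, MB468res-R8 12 h and MB468 12 h, each overlapping the next. MB468 2 h and 0 h lay apart above these and overlapped each other. MB468res-R8 2 h and 0 h lay apart above all others and overlapped each other, with MB468res-R8 0 h the highest. KRT8 ran from MB468 12 h through the other MB468 groups to all 4 MB468res-R8 groups, with MB468 0.5 and 0 h overlapping and MB468res-R8 0.5, 12 and 0 h overlapping. KRT19 in MB468 at 12 h lay apart below all other groups, the next 6 groups each overlapped the neighbour in order, and MB468res-R8 2 h lay apart as the highest. KRT6A ran from MB468 0.5 h to MB468res-R8 12 h, with overlap between MB468res-R8 0.5 h and MB468 0 h and between MB468 2 h and MB468res-R8 0 h.

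The group means of KRT6A and KRT6B were each lowest at 0.5 h and above 0 h at 2 and 12 h in both lines. From 2 to 12 h in MB468, KRT6A rose while KRT6B went from a mean of 471 to 438 CPM with overlapping libraries (log2 fold change -0.11, not tested). KRT6A made up 0.378% ± 0.036 (SD) of their summed counts at 0.5 h in MB468 and 3.68% ± 0.414 at 12 h. In MB468res-R8 the same share was 3.58% ± 0.713 at 0.5 h and 14.4% ± 0.820 at 12 h. KRT6C, the third copy, had a mean of at most 0.74 CPM in any group. KRT81 made up 47.9% ± 9.11 of the KRT81 and KRT86 counts in MB468 at 0 h and 63.5% ± 3.10 in MB468res-R8. How far reads placed on the wrong copy moved these shares was not tested.

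**Figure D4:**
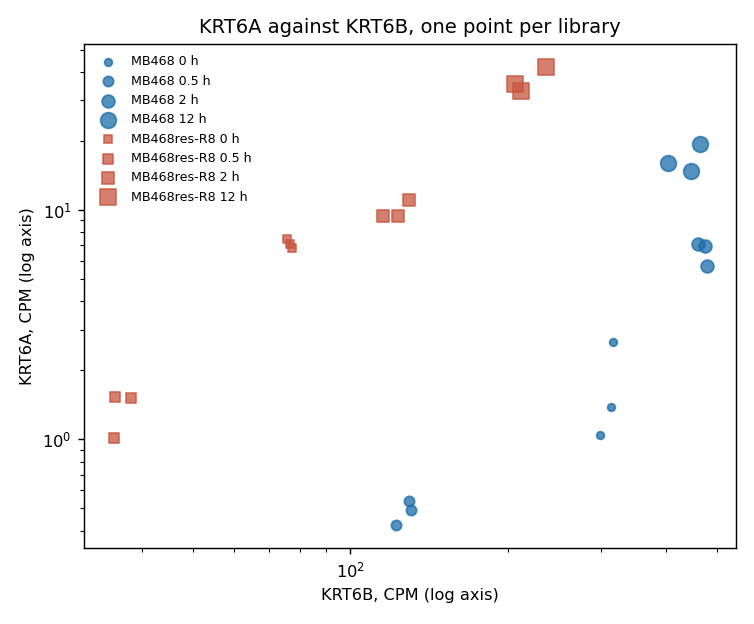
KRT6A against KRT6B in CPM (both axes logarithmic), 1 point per library, with blue circles for MB468, red squares for MB468res-R8 and larger marks for later times. At each time the MB468res-R8 points lie above and to the left of the MB468 points.

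To compare genes with each other, CPM was divided by gene length in kb (the union of annotated exons), and each keratin was expressed as a share of the summed level of all keratin genes in a library. In MB468 at 0 h the order per kb was KRT19 (593), KRT5 (502), KRT7 (258), KRT8 (245), KRT18 (209.9), KRT6B (135), KRT16 (113), KRT80 (87.6), KRT81 (1.16) and KRT6A (0.58). The exon union of KRT8 holds long transcripts, 6881 bases against 1784 in the canonical transcript. With canonical lengths KRT8 (944 per kb) came second, after KRT19 (997) and ahead of KRT5 (926).

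The share of simple keratins in the keratin RNA was lower at 12 h than at 0 h in MB468, and overlapped between these times in MB468res-R8. The simple keratins KRT7, KRT8, KRT18 and KRT19 together made up 44.8% ± 0.716 (SD) of the length-scaled keratin RNA in MB468 at 0 h, 53.3% ± 0.444 at 0.5 h, 37.6% ± 0.567 at 2 h and 36.3% ± 1.24 at 12 h. In MB468res-R8 the same share was 58.2% ± 1.06, 65.4% ± 0.772, 53.1% ± 1.08 and 60.0% ± 1.03. At 12 h it was below every 0 h library in MB468, and in MB468res-R8 the 12 and 0 h libraries overlapped. An exact permutation test of 3 against 3 libraries cannot go below p = 0.10, so these shares were not tested. KRT5 alone went from 17.2% ± 0.489 at 0 h to 27.2% ± 0.202 at 12 h in MB468, while in MB468res-R8 it went from 15.4% ± 0.0997 to 20.1% ± 0.376. Type II chains made up 45.7% ± 0.930 at 0 h and 59.0% ± 0.839 at 12 h in MB468, against 42.1% ± 0.652 and 48.8% ± 0.649 in MB468res-R8. These type II shares depend on the length taken for KRT8. In MB468res-R8 at 12 h KRT8 was at 299 per kb with the exon union and 1154 with the canonical transcript. The 10 genes held 73.6% of the keratin RNA in MB468 at 0 h and 86.6% in MB468res-R8, and KRT17 held 18.5% and 9.66%.

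**Figure D5:**
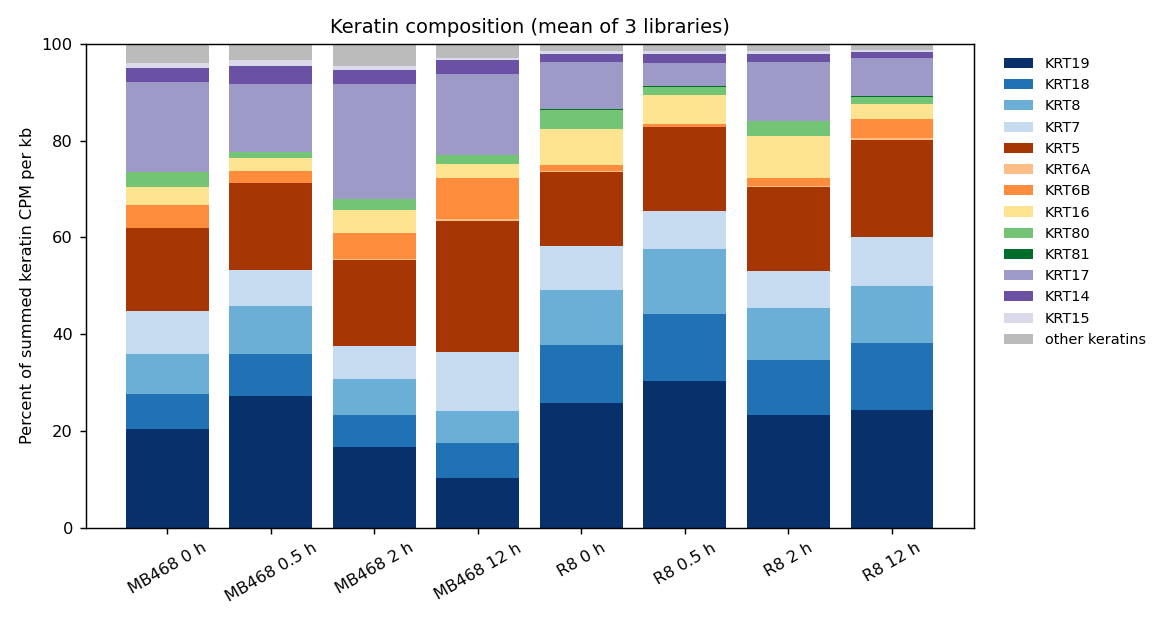
Share of each keratin in the summed CPM per kb of all keratin genes, mean of 3 libraries per group, with simple keratins in blue, KRT5, KRT6A, KRT6B and KRT16 in brown to yellow, KRT80 and KRT81 in green, and KRT17, KRT14, KRT15 and all other keratins above. The blue part falls to 36.3% in MB468 at 12 h and stands at 60.0% in MB468res-R8.

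Of the 16 other keratins that passed the filter, 11 were called between the lines at 0 h, 1 higher (KRT10) and 10 lower in MB468res-R8, with a median log2 fold change of -0.70 (1 and 10 with spike-in scaling as well), where 53.5% of all genes were called and 27.1% were lower. Among them KRT17, the stress keratin, was at a mean of 1614 CPM in MB468 and 762 CPM in MB468res-R8 (log2 fold change -1.08), and KRT75, a keratin of the hair follicle, at 85.0 and 13.2 CPM (-2.70). KRT17 fell at 0.5 h and rose at 2 h in both lines, as KRT16 did (log2 fold changes -0.68 and 0.71 in MB468, -1.31 and 0.62 in MB468res-R8). KRT75 was at a mean of 11.7 CPM at 0.5 h and 153 CPM at 2 h in MB468, and at 3.01 and 29.5 CPM in MB468res-R8. At 0.5 h, 4 of the 16 were called in MB468 and 7 in MB468res-R8, all lower. The shares over all genes, in either direction, were 33.9% and 33.7%. At 12 h, 10 of the 16 were called in MB468, 2 higher and 8 lower, where 70.8% of all genes were called. In MB468res-R8 12 of the 16 were called, 2 higher and 10 lower, where 61.3% of all genes were called. In response at 12 h, 7 of the 16 differed, 4 higher and 3 lower in MB468res-R8, where 56.5% of all genes were called. KRT15, a basal keratin, and KRT4, of stratified mucosa, fell at 12 h in MB468 by 1.56 and 1.85 on the log2 scale. In MB468res-R8 they fell by 0.71 and 0.30.

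Genes of the desmosomes, hemidesmosomes and plakins that anchor keratin filaments were listed separately. Of 18 such genes tested, 17 were called between the lines at 0 h, 13 higher and 4 lower in MB468res-R8 (median log2 fold change 0.36), where 53.5% of all genes were called (26.4% higher and 27.1% lower), and 10 with spike-in scaling, 5 in each direction (median 0.05). Of the 3 listed genes that did not pass the filter, PPL, periplakin, was listed at 0 in all 24 libraries. At 12 h, 13 of 18 differed in response between the lines, 7 higher and 6 lower in MB468res-R8 (7 and 3 with spike-in scaling), where 56.5% of all genes were called. PKP1, a desmosomal plaque protein, had the largest difference in response of the 18 (log2 difference -4.30), rising by 3.35 on the log2 scale in MB468 and falling by 0.95 in MB468res-R8. DSG2, a desmosomal cadherin (0.77), and ITGB4, the hemidesmosomal integrin (0.81), had the higher response in MB468res-R8, and PLEC, the linker plectin (-0.80), the lower.

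Among 7 other intermediate filament genes, 6 of 7 had a higher response in MB468res-R8 at 12 h and none a lower one (median log2 difference 1.17, against -0.05 over all genes tested), where 26.2% of all genes were called higher, and 7 of 7 did with spike-in scaling. VIM, the mesenchymal filament vimentin, fell by 0.62 on the log2 scale in MB468 and rose by 1.87 in MB468res-R8 (difference 2.49). The differences of LMNB1, a nuclear lamin, SYNM, synemin, and NES, nestin, were 1.17, 1.33 and 1.88.

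Among 19 epithelial transcription factors, 15 were called at 2 h in MB468, all higher than at 0 h, where 8.88% of all genes were called higher (median log2 fold change 0.48), but with spike-in scaling 8 were called, 4 in each direction (median 0.05). In MB468res-R8, 10 of 19 were called at 2 h, 8 higher and 2 lower (median 0.20), where 4.37% of all genes were called, and 4 with spike-in scaling. ELF3 (0.82), TFAP2C (0.63), TFAP2A (0.61) and KLF4 (1.64), factors of epithelial differentiation, had the smallest p in MB468 at 2 h. At 12 h, 15 of 19 differed in response, 13 of them lower in MB468res-R8 (8 of 10 with spike-in scaling), where 56.5% of all genes were called and 30.3% were lower, among them GATA3, the luminal factor (-1.48), TFAP2A (-0.77), KLF5 (-0.67) and GRHL3 (-1.30). Of 10 genes of the cornified envelope, the end product of stratified differentiation, 7 were called at 12 h in MB468 (6 higher and 1 lower) and 9 in MB468res-R8 (7 higher and 2 lower), and 7 differed in response (3 higher and 4 lower, and 3 of each with spike-in scaling), with TGM1, a cross-linking transglutaminase, at -2.06. The shares over all genes tested were 70.8%, 61.3% and 56.5%, so the cornified envelope count in either direction in MB468 was at the background. By direction, 36.1% of all genes were called higher in MB468 and 30.2% in MB468res-R8. The median log2 fold changes of the 10 genes were 0.64 and 0.36, against 0.01 and -0.02 over all genes tested.

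Markers of the luminal and basal classes of breast cancer other than keratins were counted as well. Of 8 luminal genes that passed the filter, 7 were called at 12 h in MB468, 3 higher and 4 lower, where 70.8% of all genes were called. In MB468res-R8 7 were called, all lower, where 61.3% of all genes were called and 31.1% were lower. In response 7 differed, 2 higher and 5 lower (2 and 4 with spike-in scaling), where 56.5% of all genes were called. Those with the higher response in MB468res-R8 were MUC1, the mucin (0.996), and SPDEF (1.01), an epithelial factor. GATA3, FOXA1 (-1.02) and ESR1, the estrogen receptor (-0.93), had the lower response. Of 7 basal genes, 6 were called at 12 h in MB468, 4 higher and 2 lower, and 7 in MB468res-R8, 4 higher and 3 lower, beside the same 70.8% and 61.3% of all genes. In response at 12 h, 4 of the 7 basal genes differed, 2 higher and 2 lower in MB468res-R8 (median log2 difference 0.07), where 56.5% of all genes were called. FOXC1, a basal-type factor, had the most negative difference of the 7, at -2.12. It rose by 0.98 on the log2 scale in MB468 and fell by 1.14 in MB468res-R8.

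The genes most like each keratin were taken as the 3 with the highest Pearson correlation of log2 CPM over the 24 libraries, which share lines, times and scaling. For KRT80 they were GPAT3 (0.98), LIPG (0.98) and CRISPLD2 (0.98). For KRT6B they were DDX27 (0.99), LTV1 (0.98) and KRT13 (0.95). KRT19 was closest to ALDH16A1 (0.99), KRT8 to CD59 (0.98), KRT18 to TAGLN2 (0.98) and KRT16 to VDR (0.97). KRT5 was closest to RAP1GAP2 (0.94), KRT7 to PPRC1 (0.95), KRT6A to SNHG15 (0.94) and KRT81 to CPSF3L (0.90). When each line was centred on its own mean first, from 0 to 2 of the 3 genes were the same.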

How the data were processed

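Poly(A) RNA libraries (TruSeq v2, 2 lines, 4 times, 3 libraries each) were aligned by the authors with HISAT2 2.1.0 to GRCh38 and counted with featureCounts (Subread 1.5.3), per the submitters' processing notes. The annotation release is not given in the sources used here. The authors deposited raw counts per gene with 92 spike-in rows, and these counts were used. A pair of deposited tables was not used: normalized counts from the authors' DESeq2 run, and their own fold changes and p-values.

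Groups came from the sample labels. Genes were filtered with edgeR 4.0.16 (filterByExpr, minimum count 10 and minimum total count 15), scaled by TMM, and fitted over all 24 libraries with edgeR's quasi-likelihood test. Adjustment was by Benjamini-Hochberg over 14741 genes. Intervals are 1.96 SE. Alternatives were DESeq2 size factors, spike-in scaling, no or a stricter filter, DESeq2 1.42.0, a replicate block, contrast-only fits, an adjusted p under 0.01 and each library left out. The test was checked on simulated data. Sequences and lengths came from GENCODE v44 (GRCh38); all 56 keratin rows matched by symbol. The members, lists and naming rule (the 10 keratins, other keratins that passed the filter, the 4 smallest p per list, 3 nearest genes) were chosen with earlier results of these data known. Depth ran from 11713037 to 36402932 counts per library, so KRT6A and KRT81, which fell to 5 and 22 counts in single libraries, are the least precise.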

Additional observations from a re-analysis of the deposited data

Results flagged for a closer look

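The keratins below are listed because their response to Met-Hcy+ medium differed between MB468res-R8 and MB468 (edgeR, adjusted p under 0.05). On the log2 scale, MB468res-R8 minus MB468, KRT6A at 2 h was at -1.39. At 12 h KRT19 was at 1.22, KRT6B at 1.013, KRT8 at 0.71 and KRT18 at 0.53. At 12 h KRT81 was at -1.23, KRT6A at -0.83, KRT16 at -0.53 and KRT80 at -0.33. The KRT6B and KRT80 values share the 0 h libraries in which the early change of these genes was seen. Groups of 3 libraries are too small for the check on single outlying samples.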

How the results depend on the processing

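The 10 keratin members gave the following ranges. Of the alternatives, spike-in scaling changed calls most often. Between the lines at 0 h, 6 of 10 genes were called with it, against 10 with TMM scaling. In MB468res-R8 at 2 h, 0 of 8 were called with it (edgeR, 3 of 8 at an unadjusted p under 0.05), against 5 with TMM. In MB468res-R8 from 2 to 12 h, 3 of 8 were called with it, against 6 with TMM. Over all genes the median moved by up to -0.42 (MB468 at 2 h) and the share of calls that were higher fell to 2.52% there. Among results called under either scaling, signs turned with spike-in scaling for KRT8 (-0.0187), KRT19 (-0.12) and KRT80 (-0.0566) between the lines at 0 h. In MB468 they turned for KRT19 at 0.5 h (-0.0860) and for KRT5 from 2 to 12 h (0.0566). At 2 h in MB468 they turned for KRT5 (-0.0167), KRT7 (-0.41), KRT8 (-0.26), KRT18 (-0.20) and KRT19 (-0.35). The untested 2 h difference of KRT80 turned as well (0.30). Values not called under either scaling, such as KRT7 at 12 h in MB468, could also turn. The cause was not tested. With at least 10 counts in every library KRT6A left the fit, and 0 of 7 members differed in response at 2 h (0 of 7 at an unadjusted p under 0.05). Leaving out single libraries gave 3 to 5 calls in MB468res-R8 at 0.5 h (3 without MB468res-R8 0 h replicate 2), 2 to 4 at 2 h (2 without MB468res-R8 2 h replicate 2, 3 without MB468res-R8 0 h replicate 3) and 1 to 2 differences in response at 2 h (2 without MB468res-R8 2 h replicate 2).

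The composition share of simple keratins in MB468 at 0, 0.5, 2 and 12 h was 47.1%, 54.3%, 40.5% and 39.6% from raw counts, 50.1%, 57.2%, 42.7% and 42.2% with the longest transcript, and 52.4%, 59.5%, 45.0% and 45.2% with the canonical transcript, a length chosen after seeing the data. In MB468res-R8 the composition was 59.6%, 66.0%, 55.1% and 61.2% from raw counts, 62.4%, 68.4%, 57.2% and 63.8% with the longest and 65.6%, 71.8%, 60.7% and 67.4% with the canonical transcript.

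Libraries with the same replicate number did not consistently deviate together, so the numbers were not taken as pairs. Mean correlations ran from -0.19 to 0.28 over the contrasts, and no contrast had every pair over 0.1. The highest mean was that of MB468res-R8 at 2 h against 0 h, with pairs from -0.03 to 0.47. A replicate block ended 1 call, that of KRT6A in MB468res-R8 at 2 h (log2 fold change 0.49, adjusted p = 0.073). Over the single-gene results, 925 leave-one-out values kept direction and call, 30 lost a call and 4 gained one.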
